A study of Arabidopsis thaliana with 6 samples.

Results

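Cytochrome P450 genes were read out on 6 Affymetrix ATH1 arrays of wild-type Arabidopsis thaliana Col-0, 3 from plants given aphid saliva (Myzus persicae, a sap feeder known as the green peach aphid) and 3 from control plants. All plants were 3 weeks old, soil-grown in long days and taken shortly before bolting. The labels used here give neither the tissue nor the mode and time of the saliva treatment, and they do not say what the control plants received or whether replicates came from separate plants, so p-values measure the spread between arrays, which may be technical. A probe set was taken as a P450 probe set if the platform annotation gave it 1 gene with a symbol made of CYP, a family number and a subfamily letter, which leaves out the cyclophilins. This held for 23 of the 22810 probe sets on the array, each for a different gene. The gene table of the TAIR10.1 assembly holds 236 symbols of this form, so the 23 are a small part of the superfamily, and nothing here describes the P450 genes that have no probe set named here.

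Cytochromes P450 are haem-thiolate monooxygenases. In plants most are anchored in the endoplasmic reticulum and receive electrons from NADPH through a P450 reductase, with which they insert an oxygen atom into hormones, lipids, amino acid derivatives and defence compounds. The number in a name gives the family and the letter the subfamily. The CYP71 family, and its CYP71B subfamily in particular, has multiplied by tandem duplication in Arabidopsis, and CYP71B15 (PAD3), a member without a probe set named here, completes the synthesis of the phytoalexin camalexin.

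CYP71B genes made up 19 of the 23. The other 4 were CYP84A4, CYP79A2, CYP78A9 and CYP51G2. All 23 probe set names had the plain ending that Affymetrix gives to sets meant for 1 transcript. Cross-hybridisation between these closely related genes was not tested. The gene table lists 2 members, CYP71B27 and CYP51G2, as transcribed pseudogenes, and the symbol of CYP71B30P ends in the letter for a pseudogene.

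Most CYP71B members lay close to each other in the genome. On chromosome 3, 11 members from CYP71B16 (AT3G26150) to CYP71B37 (AT3G26330) lay in a stretch of 24 neighbouring genes or pseudogenes, 18 of which carry a CYP71B symbol. CYP71B21, CYP71B22 and CYP71B23 were direct neighbours there, and so were CYP71B34, CYP71B35, CYP71B36 and CYP71B37. A second group on chromosome 3 held CYP71B5, CYP71B30P and CYP71B31, and another, on chromosome 1, held CYP71B27, CYP71B28 and CYP71B29.

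A probe set counted as detected if its mean of log2(signal + 16) over all 6 arrays was at least 5, which for equal values corresponds to a signal of 16. This held for 12 of the 23 P450 probe sets, 52.2%, against 55.2% of the 13513 probe sets with 1 gene. In family 71 it held for 11 of 19 members and in family 84 for CYP84A4, its only member here. The single members of families 51, 78 and 79 were not detected. The threshold fell in a gap between the members: CYP71B22, the lowest inside, had a mean of 5.42, and CYP78A9, the highest outside, had a mean of 4.76. This gap was not the only one. No member mean lay between CYP71B29 at 5.86 and CYP71B5 at 6.50, where a threshold of 6 would fall. All 12 detected members were above 5 on each of the 6 arrays.

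**Figure D1:**
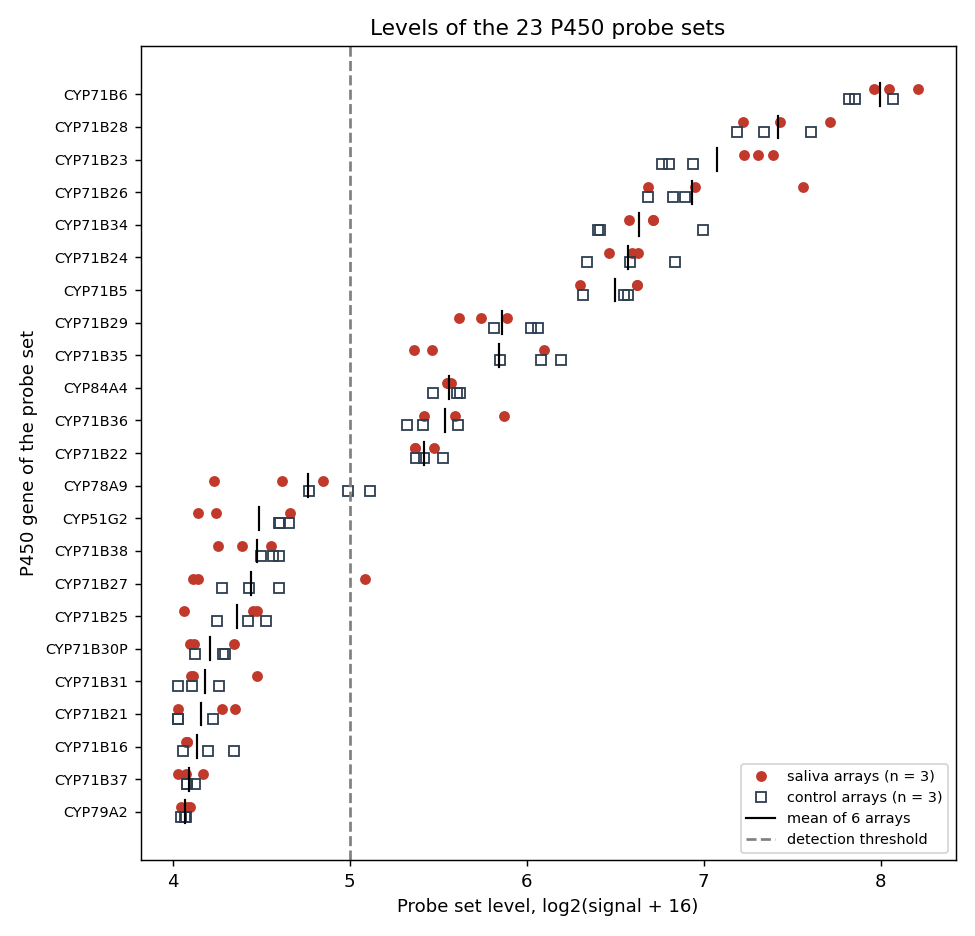
Level of each of the 23 P450 probe sets on the log2(signal + 16) scale (horizontal axis), with 3 saliva arrays as filled circles, 3 control arrays as open squares, a short line for the mean of 6 arrays and a dashed line at the threshold of 5. The means of 12 probe sets lie at or above 5.42 and those of 11 at or below 4.76, and levels of different probe sets are not comparable with each other.

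Detected and undetected members stood side by side on the chromosome. In the long stretch on chromosome 3, 7 of the 11 members were detected and 4 were not. CYP71B22 was detected while its direct neighbour CYP71B21 was not, and CYP71B34, CYP71B35 and CYP71B36 were detected while CYP71B37, next in line, was not. These contrasts depend on the threshold: CYP71B22, CYP71B35 and CYP71B36 had means of 5.42, 5.84 and 5.54, under a threshold of 6. They do not rank neighbours, since levels of different probe sets are not comparable. Of the group with CYP71B5 that gene alone was detected, and on chromosome 1 CYP71B28 and CYP71B29 were detected and the pseudogene CYP71B27 was not. The labels name no tissue. RCA, which encodes Rubisco activase of green tissue, was the 1 of 4 leaf photosynthesis markers named. It had mean signals of 5370 with saliva and 5544 in controls. The 3 root markers PYK10, EXPA7 and EXPA18 were below the detection threshold in both groups, and so was AT5G07230, the 1 flower marker of 4 that was named. FMA, a regulator of guard cell formation and the 1 of 3 guard cell markers named, had a mean signal of 46.8 in both groups, and the phloem marker had no probe set named here.

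The comparison of saliva with control plants asked which P450 transcripts differed. None of the 12 detected members passed an adjusted p of 0.05 in limma, where 0.0586% of all 13647 probe sets tested did. CYP71B23 stood closest to the threshold, with a higher level on every saliva array than on any control array. CYP71B35 had the lowest difference of the 12, with 1 saliva array among the controls. The other 10 had 95% confidence intervals that included 0. In these bulk samples, a change in the share of cells that express a gene and a change in RNA per cell cannot be told apart.

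CYP71B23 (AT3G26210) had log2 values of 7.23, 7.31 and 7.39 with saliva, against 6.94, 6.80 and 6.76 in controls. The corresponding signals were 134.0, 142.7 and 152.0 with saliva, against 106.7, 95.6 and 92.7 in controls. The groups did not overlap, and the gap between them was wider than the range within either. The difference was 0.48 ± 0.11 (SE from the fit over all probe sets, 95% interval 0.24 to 0.72), a 1.39-fold higher value on this scale. Its unadjusted p was 0.000901, place 88 among the 13647 probe sets, and its limma adjusted p was 0.137. Over the fits without single arrays the difference ran from 0.43 to 0.53 and its adjusted p from 0.15 to 0.378. Array weights gave the lowest adjusted p of the alternatives, 0.0776.

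CYP71B35 (AT3G26310) had log2 values of 6.10, 5.46 and 5.36 with saliva, against 5.85, 6.08 and 6.19 in controls. Saliva replicates 2 and 3 lay below all controls, while saliva replicate 1 lay within the control range. The difference was -0.40 ± 0.18 (95% interval -0.80 to -0.0035), with an unadjusted p of 0.0483 and a limma adjusted p of 0.488. It was -0.63 without saliva replicate 1 and -0.26 without saliva replicate 3, with adjusted p of 0.159 and 0.633 from limma. With 64 added to the signal in place of 16 it was -0.21, and with 1 added it was -0.56. The unadjusted p from limma was no longer under 0.05 with 64 added, with dim probe sets kept or with the replicate number as a block. The same held in each of the fits that left out saliva replicate 2, saliva replicate 3, control replicate 2 or control replicate 3.

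CYP71B36 (AT3G26320), the direct neighbour of CYP71B35, had log2 values of 5.87, 5.59 and 5.42 with saliva, against 5.61, 5.32 and 5.41 in controls. Saliva replicate 1 was the highest of the 6, and the other saliva values lay within the control range. The difference was 0.18 ± 0.15 (limma adjusted p = 0.742), and it was 0.057 without saliva replicate 1, 0.28 without saliva replicate 3, 0.12 without control replicate 2 and 0.090 with 64 added to the signal. CYP71B34 (AT3G26300), on the other side of CYP71B35, had 6.71, 6.71 and 6.58 with saliva, against 7.00, 6.40 and 6.42 in controls. Here control replicate 1 alone lay above the saliva arrays, and the difference of 0.061 ± 0.155 became 0.26 without that array. Whether the differences of these neighbours differ from each other was not tested.

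CYP71B26 (AT3G26290) varied most of the 12 among the saliva arrays, with 6.68, 6.95 and 7.56, a range of 0.88, against 6.69, 6.89 and 6.83 in controls. Saliva replicate 3 was far above the other 5 arrays. It also had the lowest mean correlation with its own group over the 13647 probe sets tested, 0.98 against 0.983 to 0.986. The difference of 0.26 ± 0.18 (limma adjusted p = 0.67) was 0.016 without that array, 0.46 without saliva replicate 1 and 0.16 with array weights.

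CYP71B29 (AT1G13100) had 5.62, 5.89 and 5.74 with saliva, against 6.06, 5.81 and 6.02 in controls. All saliva values were below the control mean of 5.97, but saliva replicate 2 exceeded control replicate 2. The difference was -0.22 ± 0.13 (limma adjusted p = 0.616), and it was -0.12 with 64 added to the signal. CYP71B28 (AT1G13090), next to it, had 7.22, 7.43 and 7.71 with saliva, against 7.61, 7.19 and 7.34 in controls. The groups overlapped over most of their range, and the difference was 0.077 ± 0.146 (limma adjusted p = 0.912).

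**Figure D2:**
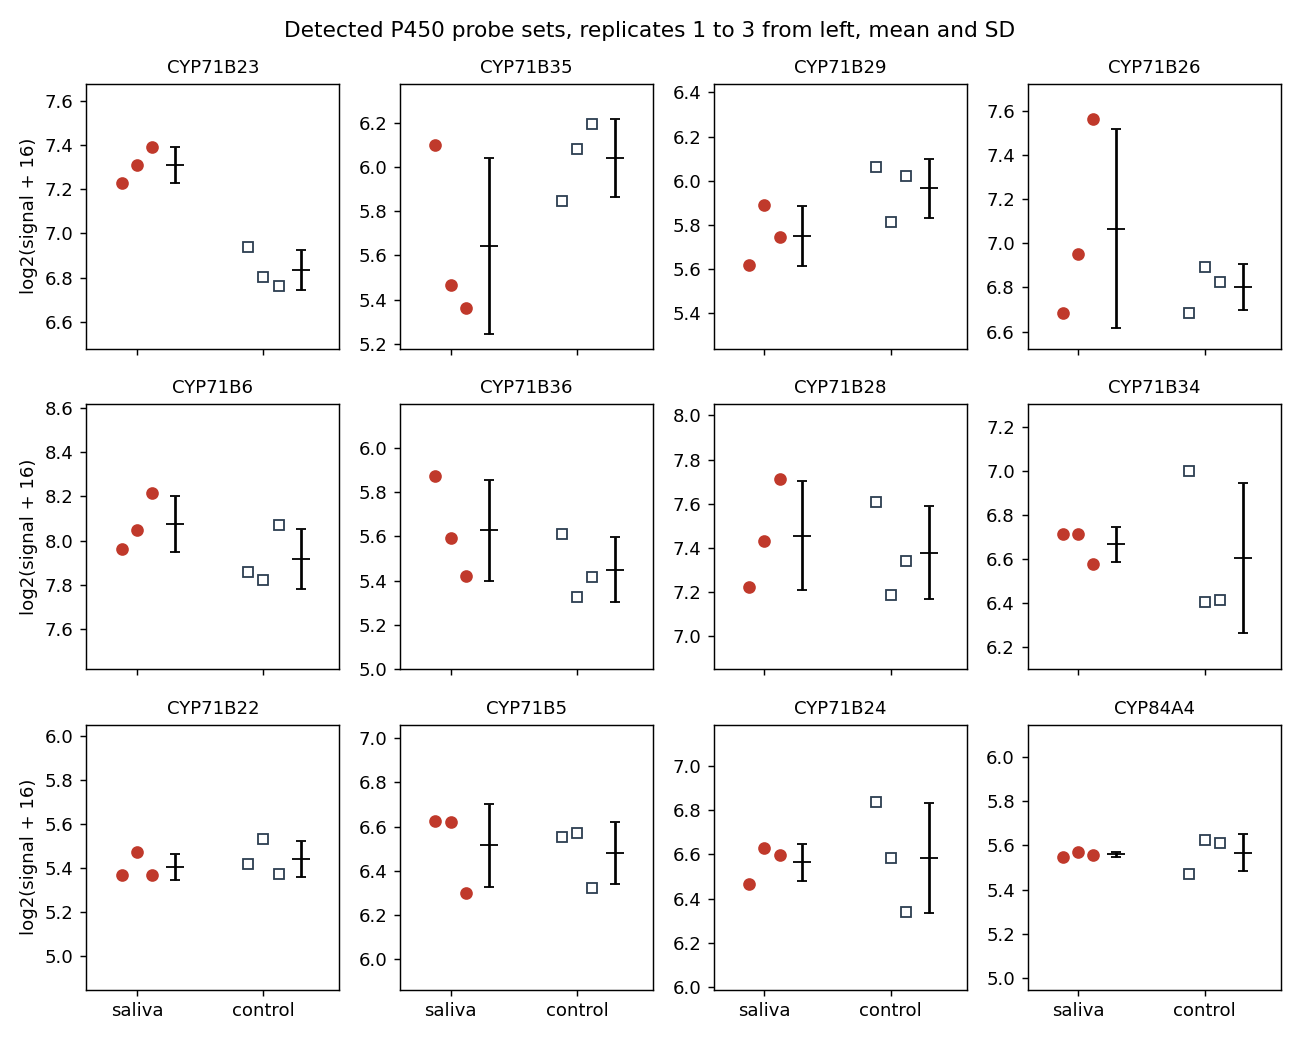
Log2(signal + 16) of the 12 detected P450 probe sets on each array, saliva on the left of each panel and control on the right, with replicates 1 to 3 from left to right and the mean and SD of each group beside them (n = 3 each). Every vertical axis spans the same width, and CYP71B23 is the panel in which the groups do not overlap (7.23 to 7.39 with saliva, against 6.76 to 6.94 in controls).

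Of the members with a known role, CYP71B6 (AT2G24180) oxidises indole-3-acetonitrile, an intermediate and breakdown product of indole defence metabolism. It had log2 values of 7.96, 8.05 and 8.21 with saliva, against 7.86, 7.82 and 8.07 in controls. All saliva arrays were above the control mean of 7.92, while control replicate 3 lay within the saliva range. The difference was 0.16 ± 0.12 (95% interval -0.091 to 0.41, limma adjusted p = 0.691), and it was 0.089 without saliva replicate 3. CYP84A4 (AT5G04330), a relative of ferulate 5-hydroxylase that takes part in the synthesis of arabidopyrones, had 5.55, 5.57 and 5.56 with saliva, against 5.47, 5.62 and 5.61 in controls. The saliva arrays spanned 0.022 and lay inside the control range of 0.15. The difference was -0.0087 ± 0.126, and its 95% interval of -0.28 to 0.26 leaves room for changes of that size either way.

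The remaining 3 detected members had differences near 0. CYP71B5 (AT3G53280) differed by 0.034 ± 0.131, with log2 values of 6.30 to 6.62 with saliva and 6.32 to 6.57 in controls. CYP71B24 (AT3G26230) differed by -0.022 ± 0.137, with 6.47 to 6.63 with saliva and 6.34 to 6.84 in controls. CYP71B22 (AT3G26200), the direct neighbour of CYP71B23, differed by -0.036 ± 0.131, with 5.37 to 5.47 with saliva and 5.37 to 5.53 in controls. In each of the 3 the groups overlapped.

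**Figure D3:**
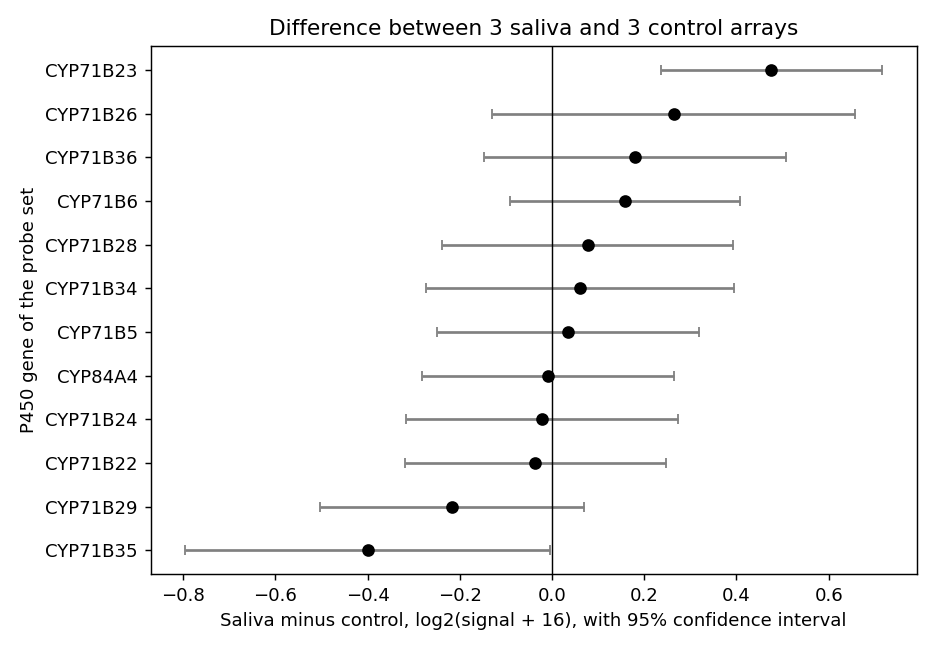
Difference between saliva and control (horizontal axis, log2(signal + 16)) for the 12 detected P450 probe sets, with 95% confidence intervals from limma over 3 saliva and 3 control arrays. The differences run from -0.40 for CYP71B35 to 0.48 for CYP71B23, and 10 of the 12 intervals include 0.

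Counts over the 12 detected members were set beside those over all probe sets tested. At an unadjusted p under 0.05 there were 2 of 12, beside 10.2% of all probe sets tested. CYP71B23 was higher, as were 5.39% of all, and CYP71B35 lower, as were 4.82%. The groups did not overlap in 1 of 12, beside 15.5% of all. The differences were above 0 in 7 members and below 0 in 5, where 51.5% of all probe sets lay above 0. Their median difference was 0.047, against 0.0057 over all probe sets tested, and the median size of the difference was 0.12 in the members and 0.11 in all. In the long stretch on chromosome 3, 4 of the 7 detected members were higher and 3 lower.

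No array was high or low in all members. Set against each member's control mean, 6, 10 and 5 of the 12 members were above it on saliva replicates 1, 2 and 3. On control replicates 1, 2 and 3 the counts were 7, 5 and 5. The control arrays are themselves part of that mean, so the counts of the 2 groups are not directly comparable. Saliva replicate 3 held the highest of the 6 values in 4 members and the lowest in 2. Control replicate 1 held the highest in 3 members and the lowest in 1.

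**Figure D4:**
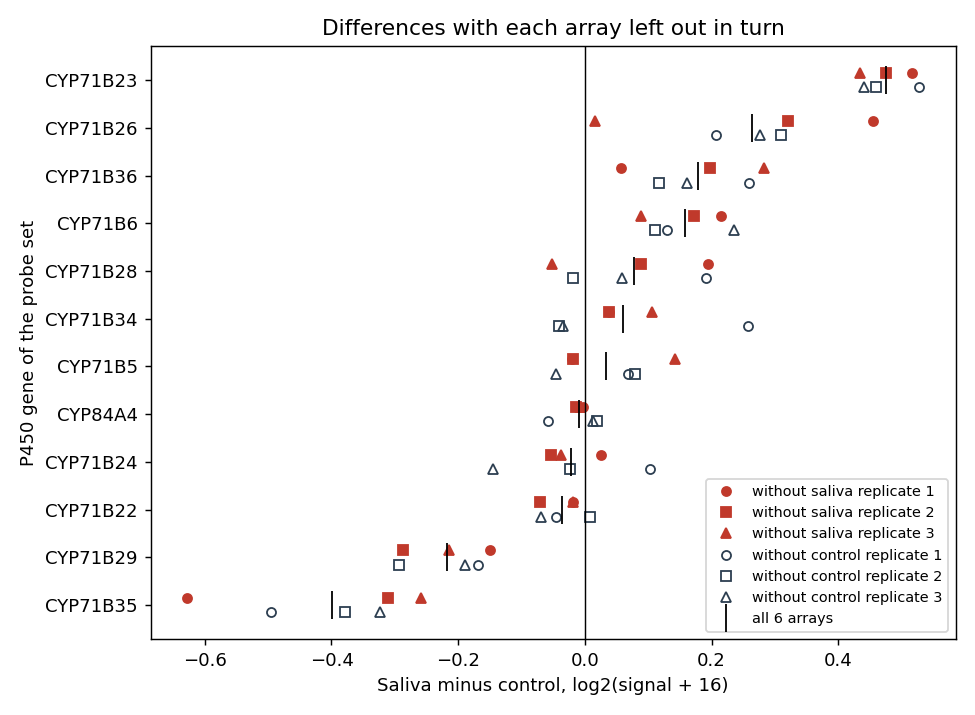
Difference between saliva and control (horizontal axis, log2(signal + 16)) for the 12 detected P450 probe sets with all 6 arrays (black bar) and with each saliva array (filled) or control array (open) left out. CYP71B23 stays between 0.43 and 0.53, CYP71B35 runs from -0.63 to -0.26 and CYP71B26 from 0.016 to 0.46.

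The 11 undetected members had signals of 0.315 to 18.7 over all arrays. They were outside the fit because of the filter on dim probe sets, and in a fit without that filter 0 of the 11 had an unadjusted p under 0.05 in limma, beside 7.94% of all probe sets in that fit. The groups did not overlap in 0 of the 11, beside 13.2% of all. CYP78A9 (AT3G61880), of a subfamily that promotes the growth of fruit and seed, had signals of 2.84, 8.57 and 12.9 with saliva, against 18.7, 15.8 and 11.3 in controls. Control replicates 1 and 2 were above every saliva array. The unfiltered difference was -0.39 ± 0.18 (limma adjusted p = 0.638), and whether such signals exceed background was not tested.

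CYP51G2 (AT2G17330), listed as a pseudogene of the sterol 14-demethylase family, had signals of 1.70, 2.96 and 9.29 with saliva, against 8.27, 9.22 and 8.41 in controls. Saliva replicate 3 lay above all controls and the other saliva arrays below them, and the unfiltered difference was -0.27 ± 0.14 (limma adjusted p = 0.688). CYP71B27, the other listed pseudogene, reached a signal of 18.0 on saliva replicate 3 and lay between 1.32 and 8.30 on the other 5 arrays.

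CYP79A2 (AT5G05260), which turns phenylalanine into the oxime that leads to benzylglucosinolate, stayed between signals of 0.501 and 1.10 on all 6 arrays. CYP71B31 (AT3G53300), an oxidase of the monoterpene linalool, had 1.35, 6.26 and 1.18 with saliva, against 0.351, 1.26 and 3.17 in controls. Signals this low were not read as a direction. The other 6 undetected members were CYP71B16, CYP71B21, CYP71B25, CYP71B30P, CYP71B37 and CYP71B38, with unfiltered differences between -0.16 and 0.12.

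Most of the well-studied P450 enzymes could not be described. Lists of 85 P450 names by role covered jasmonate and oxylipins, glucosinolates and camalexin, phenylpropanoids, brassinosteroids, gibberellins, abscisic acid, cytokinins, cutin and wax lipids, sterols, carotenoids, terpenes and organ growth. Of the 85 names, 84 could be matched to a gene. Only 6 had a probe set named here and 2, CYP71B6 and CYP84A4, were tested. Neither passed the threshold, for which the background is the 0.0586% given above. Of the 8 listed electron partners, P450 reductases and cytochromes b5, 7 could be matched to a gene, and these had 0 probe sets named here. The annotation gave 1 named gene for 13513 of the 22746 probe sets without Affymetrix controls. A gene with no probe set named here may therefore still be measured on the array.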

How the data were processed

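The authors deposited 1 linear intensity (signal) per probe set and array. MAS5, GCOS and limma appear in the submitters' processing notes, with neither role nor version. These signals had a trimmed mean of 100.01 on every array (2% off each end), and medians of 32.4 to 33.4. There were 0 columns of other samples.

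The 64 Affymetrix controls were removed, the rest was taken as log2(signal + 16), and the dimmest 40% by mean were dropped, which left 13647 with a mean of at least 5.04. The offset shrinks differences of dim probe sets. Saliva was set against control in limma 3.58.1 (R 4.3.3; lmFit, eBayes with trend), two-sided, Benjamini-Hochberg over all 13647. The fit was also tested on 10 simulated data sets with normal noise, in which 200 of 13647 probe sets were changed. It recovered 49.4% of planted differences of 0.5 and 100% of those of 1, and 6.88% of its calls were false. The noise was drawn independently for each array, with the variances that limma had already smoothed in the main fit. These shares therefore do not measure what the real arrays could detect. Symbols came from the platform annotation, and all 23 equalled those of the TAIR10.1 gene table, which was used only for loci and gene order. The members, role lists and tissue markers were chosen with earlier results of these data known. Every detected member is named, with undetected ones from the role lists; the other undetected ones are named to account for all members. No sequence was used here. The number of arrays limits the precision.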

Additional observations from a re-analysis of the deposited data

How the results depend on the processing

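The count of P450 probe sets past an adjusted p of 0.05 was 0 under each of the 16 alternative fits, in which 1 to 53 of all probe sets passed. The count at an unadjusted p under 0.05, 2 with all arrays, was 1 if 64 was added to the signal (10.2% of all probe sets), 1 if dim probe sets were kept (7.94%) and 1 if the lowest 60% were dropped (11.1%), where 7 members remained in the fit. It was 1 to 3 without single arrays (7.78% to 11.2%). CYP71B23 was in each of these counts. The count of members whose groups did not overlap, 1 with all arrays, was 2 to 4 without single arrays, when 23.5% to 28.3% of all probe sets did not overlap. The median difference, 0.047, ran from -0.011 without control replicate 3 to 0.12 without control replicate 1. With a detection threshold of 6 in place of 5, 7 of 23 members were detected. CYP71B22, CYP71B29, CYP71B35, CYP71B36 and CYP84A4 were then no longer counted. The share over all probe sets at 6 was not computed, so this fall is not a trait of the P450 members.

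Of the 12 members, 6 kept their direction in every fit that held them. The other 6, all under 0.1 in size, changed sign without single arrays: CYP71B28 ran from -0.052 to 0.19, CYP71B34 from -0.040 to 0.26, CYP71B5 from -0.046 to 0.14, CYP84A4 from -0.058 to 0.020, CYP71B24 from -0.15 to 0.10 and CYP71B22 from -0.071 to 0.0086. The cause was not tested. With the replicate number as a block the count at an unadjusted p under 0.05 was 1, beside 11.0% of all probe sets. Deviations of same-numbered arrays correlated at -0.059, 0.116 and 0.152, and those of differently numbered arrays at -0.168 to 0.0889. The values 0.116 and 0.152 lay above that range, and -0.059 lay within it. Over the whole array, limma calls at the adjusted threshold rose from 8 to 29 with the replicate block. Whether the numbers pair the arrays was not tested, and the main fit treated the arrays as unpaired.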

Other observations

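A probe set annotated to 2 CYP71B genes was outside the group because no single gene can be named for it. Its signals were 771.8, 784.0 and 716.0 with saliva, against 799.1, 796.7 and 584.9 in controls, a difference of 0.071 ± 0.125 on the log2(signal + 16) scale (limma adjusted p = 0.899). Another probe set, annotated to 2 genes of which 1 is a P450, was also outside the group and was dim, with signals of 0.973 to 9.33. CYP718 (AT2G42850), a P450 gene whose symbol has no subfamily letter, had signals of 1.06, 2.03 and 1.35 with saliva, against 1.08, 0.862 and 1.05 in controls. These probe sets were chosen after the values had been seen.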
